A study of Homo sapiens with 8 samples.

Results

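The genes followed here encode the protein-folding machinery of the endoplasmic reticulum (ER) and a pair of signalling proteins that respond when folding falls behind: HSPA5, HSP90B1, DNAJB9, HERPUD1, XBP1, PDIA4, PDIA6, CALR, HYOU1 and ERN1. They were taken as the probe sets whose annotated gene symbol is exactly one of these names, which gave 18 probe sets for 10 genes, of 22215 probe sets tested and 11963 named genes. A further 2 probe sets that list HSP90B1 together with a microRNA gene were left out by that rule. The cells were SJRH30, a human rhabdomyosarcoma line that the labels also describe as muscle fibroblasts, and all groups came from this line grown in the same medium with serum. The groups are cells untreated (0 h) or held for 6, 12 or 24 h in a hypoxic chamber at 1% oxygen. Each time has 2 arrays labelled as biological replicates, making 8 arrays, and the 3 hypoxic times share the 0 h arrays. The question put by the design is how expression changes at each time of hypoxia. Normoxic cells of matched culture time were not analysed here, and hypoxia cannot be told apart from the hours in culture. The labels do not say whether the replicates were separate cultures, and p-values then measure the spread between these arrays.

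Proteins that enter the secretory pathway are folded in the ER lumen by chaperones, oxidised by protein disulfide isomerases and, if folding fails, returned to the cytosol for degradation. When unfolded chains accumulate, HSPA5 is drawn away from the sensors of the membrane, and the freed sensors start the unfolded protein response. One of them, the kinase and endonuclease encoded by ERN1, splices XBP1 messenger RNA so that it encodes a transcription factor, and a second, ATF6, is cut to release another. The kinase PERK (gene EIF2AK3) is another sensor, which slows translation and raises ATF4. Disulfide bond formation in the ER uses oxygen as its final electron acceptor. The array summarises transcript abundance at each probe set and does not read XBP1 splicing.

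The promoters of these genes are shown first, because the ER stress response element, ERSE, is the feature by which many of them are known to be controlled together. The 250 bases before each RefSeq start (build GRCh38.p14) were searched on both strands for ERSE (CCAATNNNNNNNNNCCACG) and for the shorter ERSE-II (ATTGGNCCACG). ERSE was found before a start of 5 of the 10 genes, HSPA5, HSP90B1, XBP1, PDIA6 and CALR. That was 5 of the 13 promoters of the 10 genes, against 0.074% of 35116 promoters of the same length. ERSE-II was found before HERPUD1 and HYOU1, or 2 of the 13 promoters, against 0.0513% of all promoters. DNAJB9, PDIA4 and ERN1 had neither in this window. The stretches that hold the matches are printed below 5′ to 3′ on the strand of the gene, with 10 bases on each side and the fixed letters of the element in capitals.
HSPA5, chr9:125241381-125241419, minus strand: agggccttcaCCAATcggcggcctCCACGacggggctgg
XBP1, chr22:28800593-28800631, minus strand: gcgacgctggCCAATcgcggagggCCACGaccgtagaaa
PDIA6, chr2:10812843-10812881, minus strand: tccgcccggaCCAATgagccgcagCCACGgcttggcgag
CALR, chr19:12938374-12938412, plus strand: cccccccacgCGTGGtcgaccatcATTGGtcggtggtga
HSP90B1, chr12:103930206-103930349, plus strand: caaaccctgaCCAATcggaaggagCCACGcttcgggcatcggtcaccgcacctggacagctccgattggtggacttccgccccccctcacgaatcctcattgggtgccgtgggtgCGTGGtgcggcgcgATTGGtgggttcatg
HERPUD1, chr16:56932015-56932045, plus strand: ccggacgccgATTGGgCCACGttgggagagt
HYOU1, chr11:119057264-119057400, minus strand: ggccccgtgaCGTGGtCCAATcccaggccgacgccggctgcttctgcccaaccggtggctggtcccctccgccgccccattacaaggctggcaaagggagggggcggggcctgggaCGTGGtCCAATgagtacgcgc

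HSPA5, XBP1 and PDIA6 carry the element in the forward orientation close to the start, from positions -66, -52 and -86 counted from the start, and CALR carries it in the reverse orientation from -225. PDIA6 and XBP1 each have 2 annotated starts, and the element lies before 1 of them in each. HSP90B1 holds 2 copies in opposite orientations and HYOU1 holds 2 reverse copies of ERSE-II, from -185 and -79. The core of the hypoxia-responsive element, ACGTG, was present before a start of 6 of the 10 genes (HSP90B1, DNAJB9, HERPUD1, XBP1, PDIA4 and HYOU1). It was in 6 of the 13 promoters of the 10 genes, against 18.5% of all promoters. In HERPUD1 and HYOU1 some of these cores share letters with ERSE-II. The element core read by XBP1 and ATF6, TGACGTGG, was found before HYOU1 alone of the 10. That was 1 of the 13 promoters, against 0.612% of all promoters. In HYOU1 this core overlaps ERSE-II and a hypoxia core. These matches describe letters and do not show that a factor was bound.

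**Figure D1:**
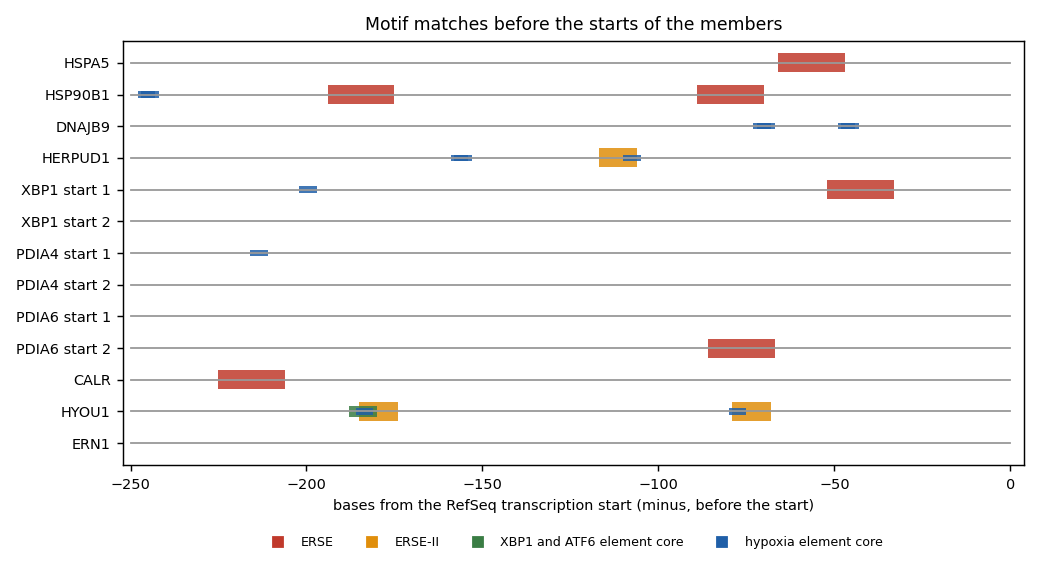
Each line is the 250 bases before a RefSeq start of a member gene, with the distance from the start on the x axis; boxes mark matches on either strand to ERSE, ERSE-II, the XBP1 and ATF6 element core and the hypoxia element core. Of the 10 genes, 5 hold ERSE and 2 hold ERSE-II, and HSP90B1 and HYOU1 hold 2 copies each.

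The deposited log2 summaries were normalised between arrays, so each change is relative to the other transcripts on the same array. In such bulk samples fewer cells of a type and less RNA per cell cannot be told apart. A probe set was called at an adjusted p under 0.05 in limma, with p-values adjusted over all 22215 probe sets of a comparison. The hypoxia genes BNIP3, SLC2A1, VEGFA, DDIT4 and PDK1 were higher than at 0 h at all times, with BNIP3 changed by 2.96, 3.33 and 3.31 on the log2 scale at 6, 12 and 24 h. Of 8 myogenic markers, MYOD1, CHRNA1 and FGFR4 read 11.38 to 12.09 over all arrays, and MYF6 read 3.77 to 4.25. Of 7 fibroblast markers, COL1A1 read 8.11 to 8.45, LUM, PDGFRB and THY1 lay between 5.93 and 6.94, and COL1A2, DCN and FAP between 4.31 and 5.40. Of 7 markers of other cells, EPCAM read 6.59 to 7.14, and the other 6 lay between 3.39 and 5.84. The middle 50% of the values was narrower on the 12 h arrays, with interquartile ranges of 3.68 and 3.63, against 3.77 to 3.81 on the others. The 24 probe sets for spiked poly-A control RNA averaged 0.47, 0.43 and 0.65 above their 0 h mean at 6, 12 and 24 h, and 18 hybridisation controls averaged 0.25, 0.19 and 0.19 above theirs. The poly-A shift was larger than the change of each of the 18 probe sets of the 10 genes at 6 and 24 h and of all but CALR 200935_at at 12 h, and the part of these shifts in the changes was not tested. The 3′ minus 5′ value, a sign of RNA integrity, was higher at each later time, at -0.10, -0.10, -0.05 and -0.05 for GAPDH and 0.02, 0.07, 0.10 and 0.11 for ACTB at 0, 6, 12 and 24 h, and its part was not tested.

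The ER genes split in direction, and the changes were small. Member probe sets of the chaperone gene HSP90B1 and the disulfide isomerase gene PDIA6 were called higher. Sets of HSPA5, HERPUD1, CALR and HYOU1 were called lower at 12 h, and HYOU1 was also lower at 24 h. In all, 6 of the 10 genes had a probe set called at some time against 0 h, against 27.3% of all genes, and genes with more probe sets had more chances to be called. DNAJB9, XBP1, PDIA4 and ERN1 had none called. No change of a member probe set exceeded 0.56 in size on the log2 scale. At 6 h, 2 of 18 probe sets were called higher and 0 lower, against 1.85% and 0.855% of all probe sets. At 12 h, 5 were called higher, from 2 genes, and 5 lower, from 4 genes, against 6.36% and 9.85% of all probe sets. At 24 h, 6 were called higher, from 2 genes, and 1 lower, against 6.86% and 7.8% of all probe sets. Probe sets of a gene share their transcript and are not independent. Member sets other than that of ERN1 were bright, from the 52.8th to the 98.0th percentile of mean value, while these shares include dim probe sets. Without the dimmer 50% of probe sets, 4656 were called at 12 h, against 3602 in the main fit. Of the members 12 were then called, against 10. The part of brightness in the difference between members and all probe sets was not tested. The leading probe set of a gene was the brightest of those that list its symbol alone. With 1 leading probe set for each gene, the counts were 0 higher and 0 lower at 6 h, 1 and 3 of 10 at 12 h, and 2 and 1 of 10 at 24 h. Of all leading probe sets the shares were 1.95% and 0.878%, 6.55% and 10.3%, and 7.86% and 8.02%. Of the 10 leading probe sets at 6 h, 3 had an unadjusted limma p under 0.05. Of all 18 member sets 8 did, against 3875 of 22215 probe sets. The number of the 18 called at 6 h was 1 after further quantile normalisation or median centring, against 587 and 560 of all probe sets. Where the prior variance followed intensity it was 7, against 1911 of all probe sets. The median change of the 18 member probe sets was 0.0044, -0.07 and 0.01 at the 3 times, and that of all probe sets was -0.02, 0.0044 and -0.02.

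These counts rest on few arrays. Leaving out either 0 h array or either 6 h array lowered the number called at 6, 12 and 24 h, among members and among all probe sets. In fits without 1 array the single remaining array was taken to vary as the other groups did. Leaving out either 12 h array lowered the member calls at 12 h. The calls over all probe sets at 12 h then rose without replicate 1 and fell without replicate 2. Leaving out either 24 h array raised both counts at 12 h. The ranges of all these counts are given at the end. After further quantile normalisation, which equalises the spread of the 12 h arrays, 5 member probe sets were higher and 2 lower at 12 h. Of all probe sets 1518 were higher and 1674 lower there. With each array centred on its median 6 members were higher and 2 lower at 24 h, against 1498 and 1809 of all probe sets. The direction of all 19 calls was the same under all alternatives run, but only further quantile normalisation and median centring could have turned it. The other settings left the change as it was, or dropped 1 array from groups that did not overlap.

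**Figure D2:**
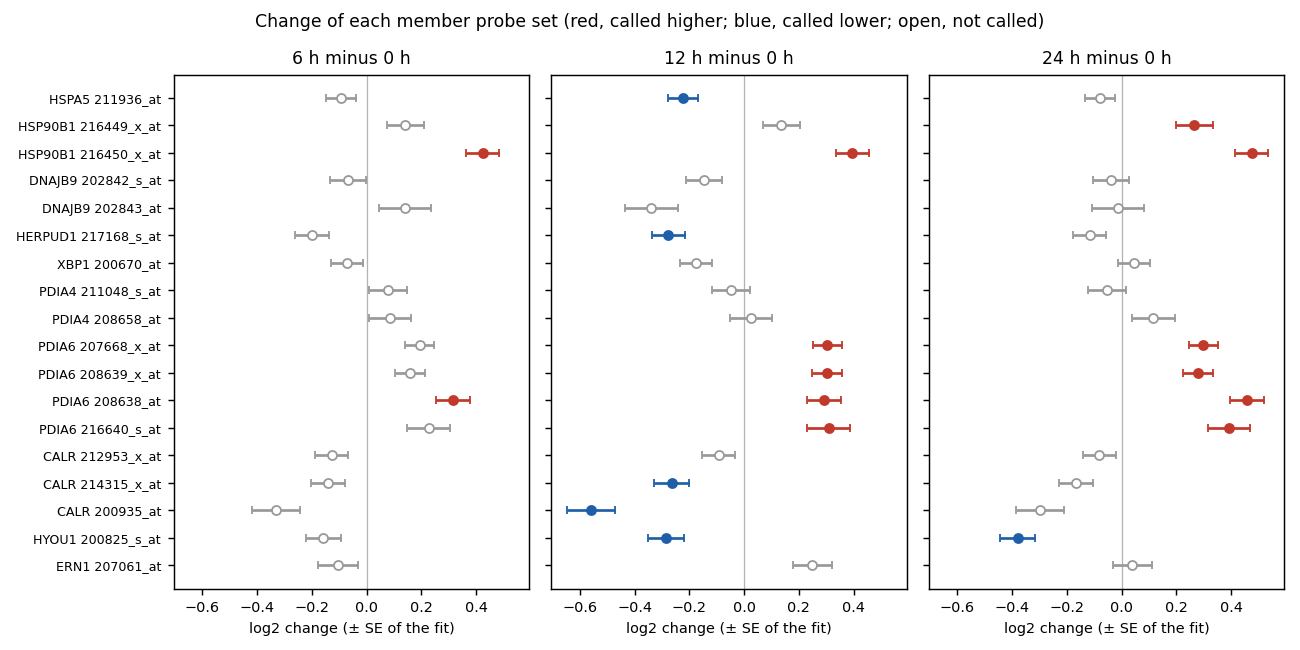
Log2 change of each of the 18 member probe sets at 6, 12 and 24 h against 0 h, with the standard error of the fit; filled red and blue points were called higher and lower, and open grey points were not called. All 4 PDIA6 probe sets are red at 12 and 24 h, and the 5 blue points at 12 h belong to HSPA5, HERPUD1, CALR and HYOU1.

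HSP90B1 encodes GRP94, the ER member of the HSP90 chaperone family, whose clients include integrins and insulin-like growth factors. On probe set 216450_x_at it read 10.05 and 9.98 at 0 h, 10.48 and 10.40 at 6 h, 10.43 and 10.40 at 12 h, and 10.50 and 10.49 at 24 h. All 6 hypoxic arrays lay above both 0 h arrays, and the level was reached by 6 h. The change was 0.42 ± 0.06 (SE of the fit; n = 2 arrays per time, as in all comparisons; limma adjusted p = 0.0142) at 6 h, 0.39 ± 0.06 (adjusted p = 0.00612) at 12 h and 0.47 ± 0.06 (adjusted p = 0.00284) at 24 h, the last being 1.39-fold. The brighter member probe set 216449_x_at read 11.38 and 11.24 at 0 h, 11.46 and 11.44 at 6 h, 11.45 and 11.44 at 12 h, and 11.53 and 11.62 at 24 h. All hypoxic arrays lay above both 0 h arrays, whose values were further apart than those of any other time. It was called at 24 h, at 0.27 ± 0.07 (adjusted p = 0.0381), and not at 6 h (0.14, adjusted p = 0.341) or 12 h (0.14, adjusted p = 0.216). The call was lost with only the 24 h and 0 h arrays in the fit (adjusted p = 0.0767). The suffix of both names marks probes that may also bind other transcripts. The 2 probe sets that list a second gene, 200599_s_at and 200598_s_at, were not called at any time, with changes of 0.16, 0.12 and 0.11 for the first and 0.08, 0.02 and 0.15 for the second. They were brighter than the member sets, with 0 h means of 12.32 and 11.45, against 11.31 for 216449_x_at and 10.02 for 216450_x_at. Whether the change differed between these probe sets was not tested.

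PDIA6 encodes a protein disulfide isomerase that also acts on the ERN1 product and binds HSPA5. All 4 of its probe sets were called higher at 12 h and at 24 h. The leading set, 207668_x_at, read 11.34 and 11.34 at 0 h, 11.54 and 11.52 at 6 h, 11.65 and 11.63 at 12 h, and 11.64 and 11.63 at 24 h. All hypoxic arrays lay above both 0 h arrays, and the 12 and 24 h levels overlapped. Its change was 0.19 ± 0.05 (adjusted p = 0.114) at 6 h, 0.30 ± 0.05 (adjusted p = 0.0102) at 12 h and 0.30 ± 0.05 (adjusted p = 0.0106) at 24 h. Set 208638_at read 11.12 and 11.13 at 0 h, 11.50 and 11.38 at 6 h, 11.40 and 11.43 at 12 h, and 11.60 and 11.56 at 24 h. It was the only PDIA6 set called at 6 h, at 0.32 ± 0.06 (adjusted p = 0.0446). This call was lost after further quantile normalisation (adjusted p = 0.0516), median centring (adjusted p = 0.0505) or with only the arrays compared (adjusted p = 0.0548). It was also lost with the replicate block (adjusted p = 0.0808) and whichever array was left out. Set 208638_at changed by 0.46 ± 0.06 (adjusted p = 0.00367), or 1.37-fold, at 24 h. Set 208639_x_at read 11.33 and 11.30 at 0 h, 11.48 and 11.46 at 6 h, 11.62 and 11.61 at 12 h, and 11.61 and 11.58 at 24 h, and its order of times matched that of the leading set. Set 216640_s_at read 10.47 on both arrays at 0 h, 10.69 and 10.70 at 6 h, 10.77 and 10.79 at 12 h, and 10.75 and 10.97 at 24 h, where its replicates were furthest apart. Their changes were 0.30 and 0.31 at 12 h and 0.28 and 0.39 at 24 h. At 6 h the PDIA6 sets other than 208638_at passed with an intensity trend (adjusted p from 0.00376 to 0.0229). They also passed without the dimmer 50% of probe sets (adjusted p from 0.0195 to 0.0454), and under no other alternative. PDIA4, another disulfide isomerase with an extra catalytic domain, was not called on either of its sets. Its leading set 211048_s_at changed by 0.08, -0.05 and -0.05 and 208658_at by 0.09, 0.02 and 0.12 at 6, 12 and 24 h. The arrays of the leading set lay between 10.17 and 10.42, both at hypoxic times, on either side of the 0 h arrays.

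HSPA5 encodes BiP, the ER chaperone of the HSP70 family that binds exposed hydrophobic stretches of unfolded chains and holds the stress sensors inactive. On its only probe set, 211936_at, it read 12.36 on both arrays at 0 h, 12.29 and 12.25 at 6 h, 12.12 and 12.15 at 12 h, and 12.28 on both arrays at 24 h. All hypoxic arrays lay below both 0 h arrays, and those at 12 h lay below the others. The change was -0.22 ± 0.05 (adjusted p = 0.0311) at 12 h, or 1.17-fold lower, and -0.09 (adjusted p = 0.445) at 6 h and -0.08 (adjusted p = 0.404) at 24 h. The call at 12 h was lost after further quantile normalisation, at -0.19 (adjusted p = 0.0547), and with only the arrays compared (adjusted p = 0.0595). It was also lost with the replicate block (adjusted p = 0.0541) and in most fits without 1 array. From 12 to 24 h the change was 0.15 ± 0.05 (adjusted p = 0.253), so a return was not shown.

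HYOU1 encodes GRP170, a large chaperone that exchanges the nucleotide of HSPA5. Its probe set 200825_s_at read 9.42 and 9.55 at 0 h, 9.36 and 9.30 at 6 h, 9.20 and 9.21 at 12 h, and 9.12 and 9.10 at 24 h. The groups did not overlap, and each later time was lower than the one before it. Its change was -0.16 ± 0.06 (adjusted p = 0.265) at 6 h, -0.29 ± 0.06 (adjusted p = 0.0248) at 12 h and -0.38 ± 0.06 (adjusted p = 0.00873) at 24 h, the last being 1.30-fold lower. The change from 6 to 24 h was -0.22 ± 0.06 (adjusted p = 0.149), so the differences between hypoxic times did not pass. The call at 12 h was lost after further quantile normalisation (-0.23, adjusted p = 0.0557) and with only the arrays compared (adjusted p = 0.0666). DNAJB9, a co-chaperone that stimulates the ATPase of HSPA5, was not called on either of its probe sets. Its leading set 202842_s_at changed by -0.07, -0.15 and -0.04, and its dimmer set 202843_at by 0.14, -0.34 (adjusted p = 0.051) and -0.01. The 12 h value of the dimmer set passed without the dimmest 25% of probe sets (adjusted p = 0.033) or the dimmer 50% (adjusted p = 0.0108), with an intensity trend (adjusted p = 0.0242), with only the arrays compared (adjusted p = 0.0345) and without one or the other 24 h array (adjusted p = 0.0231). It did not pass after further quantile normalisation (adjusted p = 0.0732). On that set the 12 h arrays read 6.62 and 6.66, and all arrays of the other times lay between 6.83 and 7.19.

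CALR encodes calreticulin, a calcium-binding lectin chaperone that retains glycoproteins until they are folded. Its 3 probe sets gave negative changes of unlike size, a difference that was not tested. Set 200935_at read 9.27 and 9.23 at 0 h, 8.90 and 8.93 at 6 h, 8.73 and 8.65 at 12 h, and 8.82 and 9.08 at 24 h. All hypoxic arrays lay below both 0 h arrays, with the 24 h arrays further apart than those of any other time. It changed by -0.33 ± 0.09 (adjusted p = 0.103) at 6 h and by -0.56 ± 0.09 (adjusted p = 0.00659) at 12 h. The 12 h value was 1.47-fold lower and the largest change of any member. At 24 h the change was -0.30 ± 0.09 (adjusted p = 0.0617). The 6 h value passed with only the arrays compared (adjusted p = 0.0391). The 24 h value passed with median centring (adjusted p = 0.046) and without the dimmest 25% of probe sets (adjusted p = 0.0385). Both passed with an intensity trend (adjusted p = 0.0107 and 0.00836) and without the dimmer 50% of probe sets (adjusted p = 0.0181 and 0.013). Neither passed after further quantile normalisation (adjusted p = 0.0923 and 0.0647). Set 214315_x_at read 10.66 and 10.73 at 0 h, 10.58 and 10.54 at 6 h, 10.45 and 10.41 at 12 h, and 10.48 and 10.58 at 24 h, again with all hypoxic arrays below both 0 h arrays. Its change at 12 h was -0.27 ± 0.06 (adjusted p = 0.0278), which was not called after further quantile normalisation (-0.22, adjusted p = 0.056) or with only the arrays compared (adjusted p = 0.0554). At 24 h its change of -0.17 was not called (adjusted p = 0.122). That value passed with an intensity trend (adjusted p = 0.0185) and without the dimmer 50% of probe sets (adjusted p = 0.0334). It did not pass after further quantile normalisation (adjusted p = 0.141). The brightest set, 212953_x_at, lay between 11.26 and 11.45 on all arrays, and its changes of -0.13, -0.09 and -0.08 did not pass.

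HERPUD1 encodes a membrane protein that organises the complexes returning misfolded proteins to the cytosol. On 217168_s_at it read 11.39 and 11.35 at 0 h, 11.17 and 11.17 at 6 h, 11.09 and 11.10 at 12 h, and 11.20 and 11.31 at 24 h. The groups at 0 h and in hypoxia did not overlap, although 24 h replicate 2 came close to the lower 0 h array. The change was -0.20 ± 0.06 (adjusted p = 0.144) at 6 h, -0.28 ± 0.06 (adjusted p = 0.0229) at 12 h, 1.21-fold lower, and -0.12 ± 0.06 (adjusted p = 0.26) at 24 h. The 6 h value passed with an intensity trend (adjusted p = 0.00997) and without the dimmer 50% of probe sets (adjusted p = 0.0295). After further quantile normalisation it did not pass (adjusted p = 0.12).

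The sensor gene ERN1 was dim, with values of 4.92 and 5.05 at 0 h, 4.83 and 4.92 at 6 h, 5.20 and 5.27 at 12 h, and 5.06 and 4.99 at 24 h on 207061_at. Its mean lay at the 25.8th percentile of all probe sets. The 12 h arrays lay above all others, and the change there was 0.25 ± 0.07 (adjusted p = 0.0529), which passed with 1 probe set a gene (adjusted p = 0.0434) and without the dimmest 25% of probe sets (adjusted p = 0.0318). After further quantile normalisation it was 0.19 (adjusted p = 0.105), and with an intensity trend the adjusted p was 0.12. XBP1, the target of its endonuclease, read 8.14 and 8.17 at 0 h, 8.10 and 8.07 at 6 h, 7.97 and 7.99 at 12 h, and 8.16 and 8.24 at 24 h on 200670_at. The 12 h arrays were the lowest, at a change of -0.18 ± 0.06 (adjusted p = 0.081), and the 24 h change was 0.05 (adjusted p = 0.671). The 12 h value passed without the dimmest 25% of probe sets (adjusted p = 0.0471) or the dimmer 50% (adjusted p = 0.0195), and was -0.12 (adjusted p = 0.192) after further quantile normalisation. The other leading probe sets were bright, from the 67.6th percentile for XBP1 to the 98.0th for HSPA5.

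**Figure D3:**
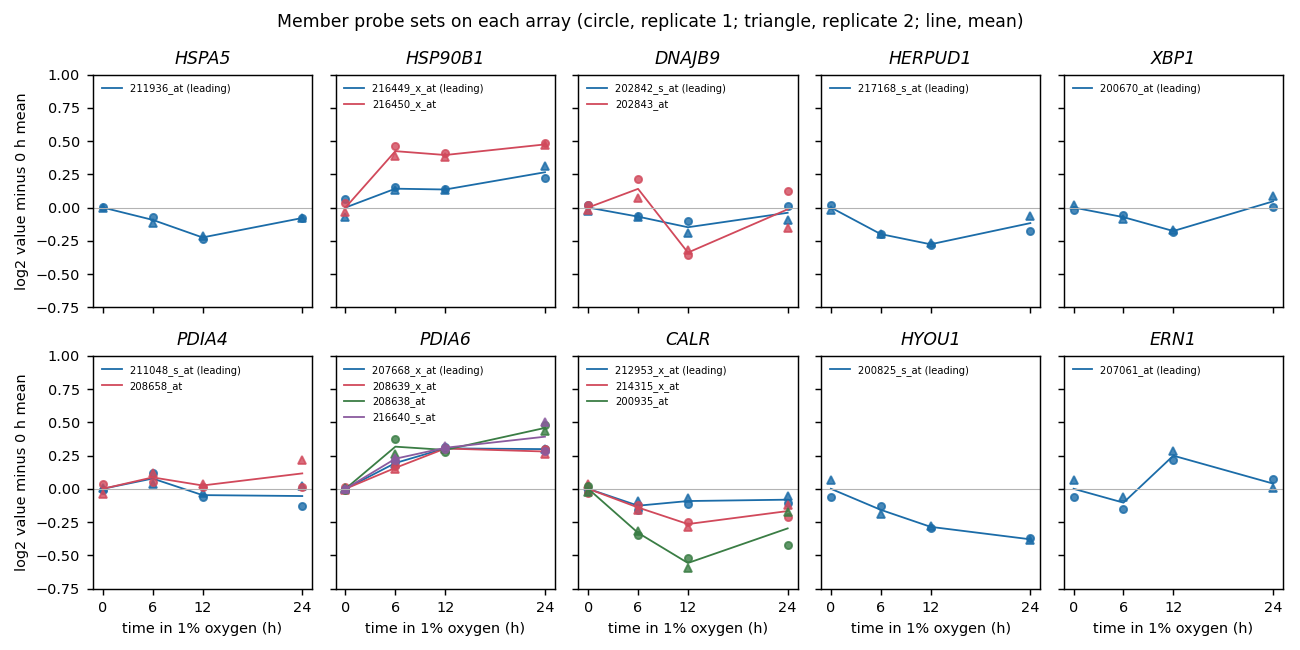
Log2 value of each member probe set on each array minus its 0 h mean, against time in 1% oxygen in h; circles are replicate 1, triangles replicate 2 and lines the mean of the 2 arrays. HSP90B1 and PDIA6 lie above 0 in hypoxia, and HYOU1 is lowest at 24 h. HSPA5, HERPUD1, XBP1, both DNAJB9 sets and the CALR sets 200935_at and 214315_x_at have their lowest mean at 12 h.

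A moderated F-test over the 3 comparisons with 0 h called 7 of the 18 member probe sets, against 12.6% of all probe sets. They were HSP90B1 216450_x_at, the 4 sets of PDIA6, CALR 200935_at and HYOU1. Between hypoxic times 0 of 18 were called by limma in any comparison, against 1.48% of all probe sets from 6 to 24 h, 0.117% from 6 to 12 h and 0.144% from 12 to 24 h. At an unadjusted p under 0.05 there were 1, 5 and 7 members in these comparisons, against 3765, 4647 and 3653 of 22215 probe sets. Where the prior variance followed intensity, 1, 3 and 1 passed, against 1568, 1241 and 711 of all probe sets. Over the 8 arrays, HSPA5 and HERPUD1 had a Pearson correlation of 0.89, HSPA5 and XBP1 of 0.80, and HSPA5 and PDIA6 of -0.77. These are descriptions over arrays that share the 4 times.

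Among genes called by the F-test, those most like HSPA5 over the 8 arrays were SNTB1, OGFOD1, MPC1, DHX8 and NIP7, with Pearson correlations from 0.970 to 0.986, out of 1570 genes. Those most like HYOU1, whose leading probe set had the widest range of time means among the leading sets (0.38), were AMOTL2, AQR, SH3BGR, GOLGA2 and INHBE, with correlations from 0.977 to 0.989.

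Counts over the other lists of the secretory pathway are of leading probe sets, of which 1.95% were called higher and 0.878% lower on the whole array at 6 h, 6.55% and 10.3% at 12 h, and 7.86% and 8.02% at 24 h. Of 22 other measured ER chaperones and folding enzymes, 1 rose and 0 fell at 6 h, 2 rose and 3 fell at 12 h, and 2 rose and 2 fell at 24 h, with medians of -0.002, -0.04 and -0.01. The gene that rose at all times was ERO1A, the oxidase that passes electrons from disulfide isomerases to oxygen, at 0.68 ± 0.06 (adjusted p = 0.00219), 0.86 ± 0.06 (adjusted p = 0.000316) and 0.90 ± 0.06 (adjusted p = 0.000191). PRDX4, an ER peroxidase that uses the peroxide of this reaction, rose by 0.30 at 12 h and 0.35 at 24 h. MANF, a stress-induced factor that binds HSPA5, fell by 0.23 at 12 h. DNAJC10, a disulfide reductase, fell by 0.28 and 0.24, and UGGT1, the folding sensor of glycoproteins, by 0.26 and 0.27 at 12 and 24 h.

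Of 8 genes listed here as the PERK branch, 6 fell at 6 h, 7 at 12 h and 8 at 24 h. Of all leading probe sets 0.878%, 10.3% and 8.02% fell at these times. On the list 0 were higher, and the medians were -0.48, -0.70 and -0.62. PERK activity was not measured, and whether PERK had a part in these changes was not tested. ASNS, the asparagine synthetase gene controlled by ATF4, was at -1.05 ± 0.06 (adjusted p = 0.000103) at 24 h, and the pseudokinase gene TRIB3 at -0.89 ± 0.06. ATF4 itself was at -0.77 ± 0.07 and DDIT3, a stress transcription factor gene, at -0.64 ± 0.07. The kinase gene EIF2AK3, on a list of 10 other sensor and processing genes, was not called. On that list 0 rose and 0 fell at 6 h, and 0 rose and 2 fell at both later times. These were BAX and BAK1 at 12 h (-0.29 and -0.30), which encode cell death proteins that bind the ERN1 product, and BAK1 (-0.36) and TMBIM6 (-0.29), a membrane inhibitor of that product, at 24 h.

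In ER-associated degradation, 1 of 16 genes rose at each time and 0, 2 and 2 fell at 6, 12 and 24 h. EDEM1, a lectin that extracts misfolded glycoproteins, rose by 0.29 ± 0.06 (adjusted p = 0.0465), 0.39 ± 0.06 (adjusted p = 0.00557) and 0.29 ± 0.06 (adjusted p = 0.0157). The segregase gene VCP was at -0.60 at 12 h and -0.57 at 24 h, and the derlin gene DERL2 at -0.33 and -0.26, all called lower. Of 21 genes of translocation into the ER, 1, 1 and 2 rose and 0, 3 and 2 fell. The translocon-associated subunit gene SSR3 rose by 0.72, 0.49 and 0.82, and SEC11A, a signal peptidase subunit gene, by 0.22 at 24 h. The receptor subunit genes SRPRB and SRPRA were at -0.49 and -0.28 at 12 h, and SRP19, which encodes a protein of the signal recognition particle, at -0.32, and SRPRB and SRP19 were called lower at 24 h too. Of 7 oligosaccharyl transferase genes 0 were called at any time by limma, MAGT1 being at 0.27, 0.20 and 0.17 and STT3A at 0.23, 0.18 and 0.04. Of 14 genes of transport out of and back to the ER, SEC24B rose by 0.24 at 12 h and SAR1B fell by 0.33 and 0.43 at 12 and 24 h.

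**Figure D4:**
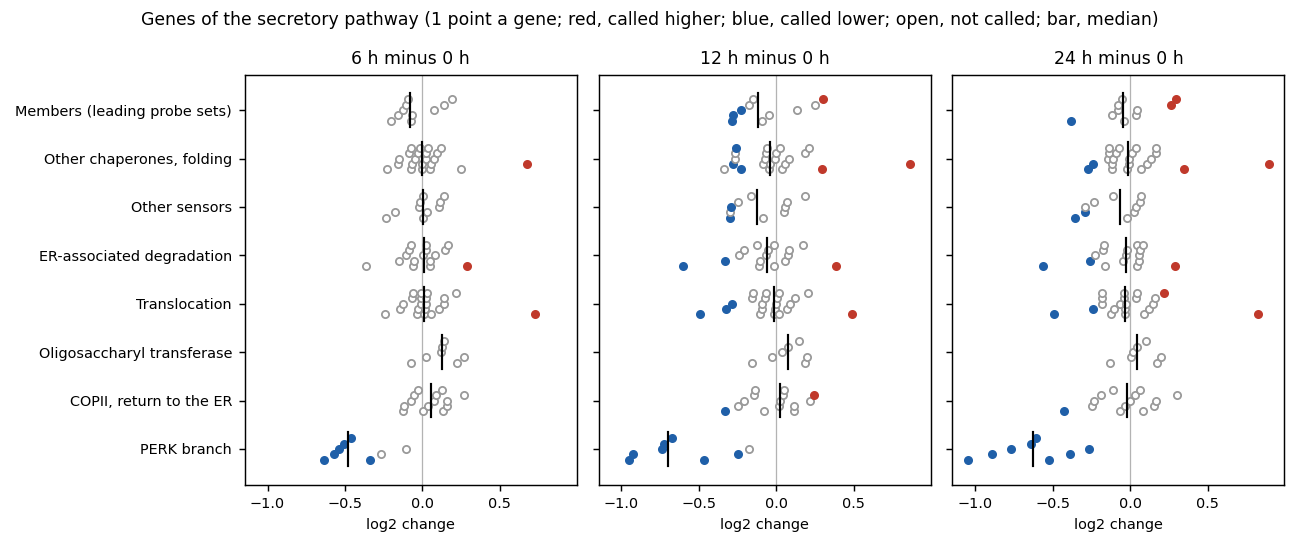
Log2 change against 0 h of 1 leading probe set for each gene at 6, 12 and 24 h, by list; red and blue points were called higher and lower, open points were not called, and the black bar is the median. The list named PERK branch has medians of -0.48, -0.70 and -0.62, while the members and the other lists have medians between -0.12 and 0.12.

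ERSE stood before HSP90B1 and PDIA6, which had member probe sets called higher. It also stood before HSPA5 and CALR, which had sets called lower at 12 h, and before XBP1, which was not called. Both genes with ERSE-II, HERPUD1 and HYOU1, were lower at 12 h. In all, 43 genes had ERSE or ERSE-II in the 250 bases, 7 of them members, and 21 of the other 36 were measured. Of these 21, 0 rose and 0 fell at 6 h, 1 rose and 1 fell at 12 h, and 1 rose and 0 fell at 24 h, with medians of -0.01, -0.05 and -0.06. Of all leading probe sets 1.95% rose and 0.878% fell at 6 h, 6.55% and 10.3% at 12 h, and 7.86% and 8.02% at 24 h. The gene that fell was FICD, an enzyme that modifies HSPA5, at -0.34 ± 0.07 (adjusted p = 0.0177), and those that rose were the glycogen synthase gene GYS1 at 12 h (0.33) and the glycine receptor gene GLRA2 at 24 h (0.29). These genes were named after their values were seen. Among uncalled genes of the set with known ER products, SDF2L1 was at -0.34 (adjusted p = 0.0736), CRELD2 at -0.27 (adjusted p = 0.0697), ALG12 at -0.17 (adjusted p = 0.0973), SERP1 at -0.15 (adjusted p = 0.117), CANX at -0.01 (adjusted p = 0.941) and ERO1B at 0.00038 (adjusted p = 0.998) at 12 h.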

How the data were processed

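The authors deposited log2 values from RMA, as named in the submitters' processing notes, which give no version. RMA usually equalises the distribution of probe values, so differences in total RNA are removed. Probe sets took their names from the platform annotation, with symbols updated through Entrez identifiers where these matched a RefSeq table (19058 of 19070 with 1 symbol). The 62 control probe sets were left out of the tests. A model with a mean for each time was fitted in limma 3.58.1 (R 4.3.3; 4 residual and 3.70 prior degrees of freedom) to 8 arrays, with two-sided tests, Benjamini-Hochberg adjustment over 22215 probe sets and no filter on dim ones. The number of arrays limits the precision. All member probe sets are described, and for other lists up to 4 called genes per comparison with the largest change (2 of the uncalled where none was called) are named. Members and lists were chosen with earlier results of these data known, and the set of ERSE-bearing genes after these values were seen. The differences between replicate 1 and replicate 2 correlated between times from -0.13 to 0.08, so the numbers did not pair the arrays. The procedure was tested on simulated data with planted changes larger than nearly all those of the members. It therefore does not show how often changes as small as theirs are found. Alternatives changed the features tested, scaling, variance model, filter, threshold, block and arrays in the fit.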

Additional observations from a re-analysis of the deposited data

How the results depend on the processing

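No member call against 0 h reversed under any alternative run, and only further quantile normalisation and median centring could have reversed one. Counts are given for all probe sets, then for members. With 1 probe set a gene, 423, 2202 and 2123 were called at 6, 12 and 24 h, and of the members 0, 5 and 3. Further quantile normalisation and median centring called 587 and 560 at 6 h (1 member each), and 74 and 62 from 12 to 24 h. With an intensity trend 1911 were called at 6 h (7 members), 1568 from 6 to 24 h (1), 1241 from 6 to 12 h (3), 711 from 12 to 24 h (1) and 5533 by the F-test. Without the dimmest 25% of probe sets these counts were 1051 at 6 h, 768, 236 and 185 between hypoxic times. Without the dimmer 50% they were 2078 (7 members), 1537 (1), 1231 (1), 709 (1) and 5101 by the F-test. At an adjusted p under 0.01 they were 170, 1161 and 1228 against 0 h (0, 2 and 3 members), 62, 0 and 0 between hypoxic times and 678 by the F-test. With only the arrays compared 2294 were called at 12 h, and 171, 0 and 0 between hypoxic times. With the replicate block 334 were called at 6 h (1 member), 129 from 6 to 24 h and 0 in both other comparisons of hypoxic times; members lost HSPA5 at 12 h (adjusted p = 0.0541), PDIA6 208638_at at 6 h (adjusted p = 0.0808) and HSP90B1 216449_x_at at 24 h (adjusted p = 0.0628). The numbers do not pair the arrays, and the block changed no other member call. Leaving out 1 array gave 84 to 650, 857 to 3949 and 951 to 3516 calls at 6, 12 and 24 h (0 to 2, 1 to 11 and 2 to 7 members), 19 to 452, 0 to 1117 and 0 to 302 between hypoxic times (6 to 24, 6 to 12 and 12 to 24 h) and 417 to 3668 by the F-test. The cause of these differences was not tested. The calls of HSP90B1 216450_x_at and PDIA6 208638_at at 24 h were kept under all 16 alternatives that tested them. Neither is a leading set, so neither was in the fit with 1 probe set a gene. The brighter HSP90B1 set 216449_x_at lost its 24 h call with the replicate block and with only the arrays compared.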
